A study of Mus musculus with 12 samples.

Results

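Keratin genes encode the intermediate filament proteins of epithelial cells, and their mRNA was followed here in the colon of mice with colitis caused by dextran sulfate sodium (DSS). Members were the protein-coding genes whose symbol is Krt followed by a number, which gave 53 of the 54532 genes counted. Krt8-ps, with 69 to 234 counts per library, and Krt74 also match that pattern but are annotated as pseudogenes and were left out. The 12 libraries came from colon of male wild-type (WT) C57BL/6J mice aged 5 weeks, with 3 libraries in each of 4 groups. The control group was untreated, the model group received DSS in place of drinking water, the Rhy group received DSS and rhynchophylline, an alkaloid of Uncaria rhynchophylla, and the DXM group received DSS and dexamethasone, a glucocorticoid, at 4 mg per kg. The study used Rhy at 2, 4 and 8 mg per kg, and the labels do not say which of these doses was sequenced. Libraries held 14346478 to 17749716 counts each.

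A keratin filament is built from pairs of 1 type I and 1 type II keratin, so epithelial cells make both kinds. Simple epithelia such as the lining of the gut use Krt8 (type II) with Krt18, Krt19 and Krt20 (type I), and Krt20 marks differentiated surface cells of the colon. Squamous epithelia use other pairs, such as Krt5 and Krt14 in basal cells and Krt1 and Krt10 in the layers above them, and hair and nail have keratins of their own. The genes lie in a type I cluster on mouse chromosome 11 and a type II cluster on chromosome 15, where Krt18 sits beside its partner Krt8.

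The 2 clusters were both represented, with 27 members on chromosome 11 and 26 on chromosome 15, on the build GRCm38. Reads were counted for 41 members, and 12 had no count in any library, where a count of 0 allows up to 3 counts. The filter on low counts left 19 members among 16904 genes, 13 on chromosome 11 and 6 on chromosome 15. Of the 22 members with reads that were under the filter, only Krt1 reached 10 counts, with a range of 1 to 16. Krt5, the defining type II keratin of basal squamous cells, had at most 4 counts in a library and 0 in 4 of them. Krt78 had 8, 7 and 5 counts in control, 1, 3 and 0 in model, 0, 1 and 2 with Rhy and 8, 4 and 4 with DXM, which the filter left untested. Krt90 and Krt83 had 0 to 9 counts, Krt79 and Krt25 0 to 6, Krt2 and Krt4 0 to 5 and Krt6b 0 to 3, and the other 12 (Krt6a, Krt24, Krt26, Krt28, Krt31, Krt33b, Krt35, Krt39, Krt42, Krt76, Krt77 and Krt88) had at most 2 in a library. The members with no count were Krt9, Krt32, Krt33a, Krt34, Krt40, Krt71, Krt72, Krt73, Krt75, Krt81, Krt82 and Krt86.

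All 5 simple epithelial keratins were tested, with 7 of 18 squamous keratins (Krt10, Krt12, Krt13, Krt14, Krt15, Krt16 and Krt17), 3 of 15 hair keratins (Krt36, Krt84 and Krt87), 1 of 9 hair sheath keratins (Krt27) and 3 of 6 others (Krt23, Krt80 and Krt222). The classes name where each gene is best known and not where it was expressed here.

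The stretch of 100 bases before the transcription start is shown for Krt8 and Krt18, the neighbouring partners, for Krt20 and Krt7, the simple keratins that differed most between groups, and for Krt84, Krt36, Krt13 and Krt27, the other genes that the results below turn on. Sequences are RefSeq's on GRCm38.p6, read 5′ to 3′ on the gene's strand, and those of Krt8, Krt18 and Krt7 were moved upstream by 140, 36 and 1 bases to end before the first exon of the coding transcript that starts there. The Krt7 window follows RefSeq's start, which lies 1360 bases inside the gene as GENCODE M21 annotates it. Capitals mark TATAAA, the core of a TATA box, or GGGCGG on either strand, a GC box.
Krt8, chr15:102004483-102004582, minus strand: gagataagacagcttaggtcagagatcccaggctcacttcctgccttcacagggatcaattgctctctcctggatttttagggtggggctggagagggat
Krt18, chr15:102028080-102028179, plus strand: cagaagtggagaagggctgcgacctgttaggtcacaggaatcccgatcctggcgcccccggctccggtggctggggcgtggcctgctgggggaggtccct
Krt20, chr11:99438154-99438253, minus strand: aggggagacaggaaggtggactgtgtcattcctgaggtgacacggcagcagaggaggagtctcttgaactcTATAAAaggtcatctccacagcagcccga
Krt7, chr15:101412302-101412401, plus strand: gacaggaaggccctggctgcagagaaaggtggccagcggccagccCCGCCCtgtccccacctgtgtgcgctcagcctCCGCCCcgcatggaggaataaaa
Krt84, chr15:101532821-101532920, minus strand: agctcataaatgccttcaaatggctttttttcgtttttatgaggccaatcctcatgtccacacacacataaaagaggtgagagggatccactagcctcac
Krt36, chr11:100105627-100105726, minus strand: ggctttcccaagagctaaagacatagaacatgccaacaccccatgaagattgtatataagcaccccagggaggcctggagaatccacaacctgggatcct
Krt13, chr11:100121567-100121666, minus strand: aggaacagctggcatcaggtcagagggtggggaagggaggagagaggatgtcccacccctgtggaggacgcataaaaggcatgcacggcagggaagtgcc
Krt27, chr11:99351119-99351218, minus strand: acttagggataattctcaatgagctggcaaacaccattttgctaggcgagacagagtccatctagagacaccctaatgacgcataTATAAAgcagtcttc
TATAAA was found on the gene's own strand in the windows of Krt20 and Krt27, 29 to 24 and 15 to 10 bases before the window's end, and GGGCGG at 2 places in that of Krt7, on the opposite strand. Among 27025 promoters of all genes, 5.95% held TATAAA and 25.2% held GGGCGG in the 100 bases before the RefSeq start, and 15 of the 36 keratin promoters listed held TATAAA. The AP-1 motif TGANTCA, in 2.7% of promoters, and the CDX motif GCNATAAA, in 1.01%, were in none of the keratin windows. A match of letters is a description and not a shown binding site.

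The level per length was read from the deposited FPKM (reads scaled to gene length and library size). The simple keratins made up 98.98 to 99.73% of all keratin counts in each library and 1.08 to 1.93% of all counts of the library. Krt8 ranged from 2613 to 4839 FPKM and Krt19 from 1909 to 3615 FPKM, and the ranges of these 2 genes overlapped. Krt20 ranged from 187 to 1414 FPKM and Krt18 from 143 to 519 FPKM, whose ranges also overlapped. Krt7, the second simple type II keratin, was lower at 7.23 to 28.3 FPKM. Its deposited gene length, 7049 bases, exceeds its longest coding transcript, 4094 bases, and its level per length depends on which is used. The summed level of type II simple keratins was 0.802 to 1.16 times that of type I, and Krt8 gave 99.2 to 99.8% of the type II sum. Krt19 gave 59.3 to 85.2% of the type I sum in every group, with its lowest share in control 2 and its highest in DXM 3.

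**Figure D1:**
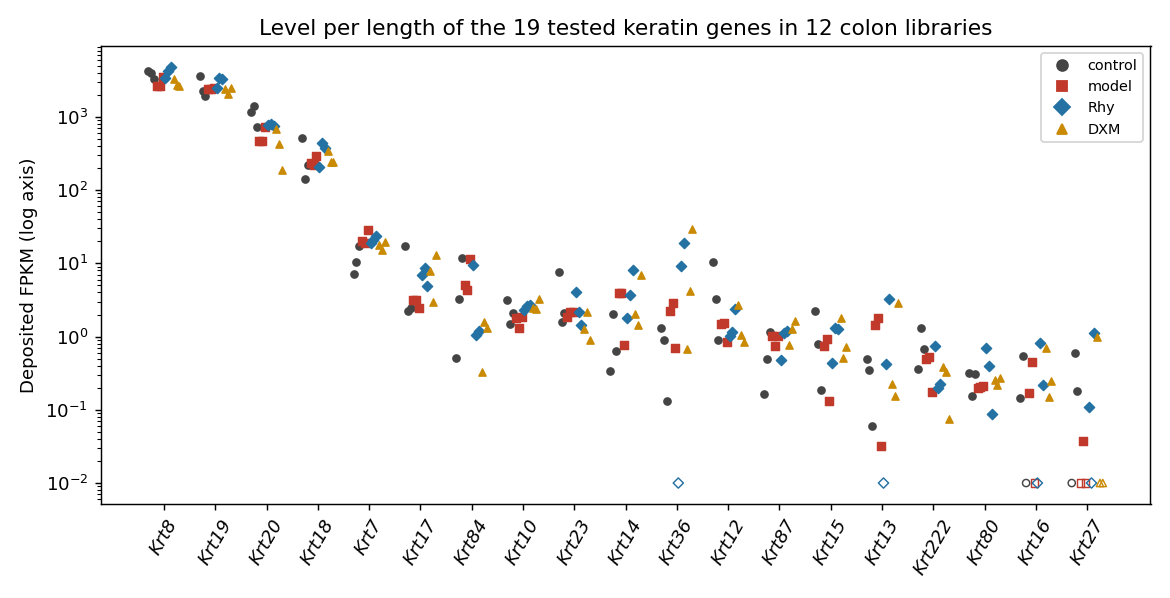
Deposited FPKM (log axis) of the 19 tested keratin genes in each of the 12 libraries, coloured by group, ordered by median, with open symbols at the bottom for values of 0. Krt8, Krt19, Krt20 and Krt18 lie above 100 FPKM in every library, and no other member reaches 100 FPKM in any library.

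The tissue carried colon markers throughout. Summed CPM (read counts scaled to a library total of 1000000, with edgeR's TMM factors) of 13 colon epithelium genes, Car1, Lgals4, Muc2 and Epcam the highest, was 23105 to 32650 in control, 17575 to 26021 in model, 17185 to 26513 in Rhy and 13078 to 25626 in DXM. Of 17 squamous epithelium genes, Ivl, Sprr3 and Calml3 were at 0 in all libraries. Under the filter were also Trp63 at 0 to 0.209 CPM, Dsg3 at 0 to 0.303 CPM and Krtdap at 0 to 0.152 CPM. So were Gjb6 at 0 to 0.0653 CPM, Sbsn at 0.0566 to 0.667 CPM and Aqp3 at 0 to 0.953 CPM. The other 8 passed the filter. The highest were Serpinb5 at 48.9 to 132 CPM, Anxa8 at 5.27 to 130 CPM, Pkp1 at 11.3 to 58.6 CPM and Sprr1a at 5.17 to 53.3 CPM. The sum of the 17, made up mostly of those highest genes, was 98.6 to 253 CPM in control and 130 to 176 in model. It was 121 to 223 CPM with Rhy and 137 to 202 with DXM. Of 13 cornified skin genes 7 were at 0 in all libraries, Flg and Lce1b among them, and 3 passed the filter, with Casp14 at 0 to 28.7 CPM. Their part in the squamous keratin values was not tested. In bulk tissue, fewer epithelial cells and less keratin mRNA per cell cannot be told apart. Model 1 and model 2 stood apart as a pair: their common dispersion was 0.00201, against 0.0606 to 0.353 in the other 65 pairs of libraries. Over 15996 genes their counts differed more than counting error alone (median chi-square ratio 1.9), which does not show that they came from separate mice. Both were kept as the labels list them, and fold changes with the 2 summed into 1 are given for the keratins whose differences they bear on most.

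In the comparison of model with control, which addresses the change with DSS, no keratin had an adjusted p under 0.05 with edgeR (quasi-likelihood test). No gene at all did (0%). The smallest adjusted p of any gene was 0.459, which Krt7 shared with other genes, Plec among them. At an unadjusted p under 0.05, 3 of the 19 keratins were found, against 9.62% of all genes tested. Krt7 was higher (5.11% of all genes were higher at that threshold) and Krt20 and Krt12 were lower (4.51%) in model. Only Krt7 was left with the replicate number as a block or with model 1 and model 2 summed. The median log2 fold change of the 19 was -0.30, beside 0.01 for all genes, with 6 higher and 13 lower. Krt7 alone had groups that did not overlap, where 10.4% of all genes were higher and 6.61% lower without overlap.

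Krt7, a type II keratin of ductal and other simple epithelia, had 50.8, 72.7 and 120 CPM in control and 147, 136 and 204 CPM in model. The lowest model library lay above the highest control library. The log2 fold change was 1.00 (SE 0.28), a 2-fold difference, with an unadjusted p of 0.0044 and an adjusted p of 0.459. Its unadjusted p stayed under 0.05 in all 20 alternatives tried, its log2 fold change was 1.09 (adjusted p 0.887) with model 1 and model 2 summed, and it lay between 0.75 and 1.37 with 1 library left out. In the other DSS groups it had 136, 148 and 171 CPM with Rhy and 127, 111 and 140 CPM with DXM. All 3 Rhy libraries were above all controls (log2 fold change 0.90, SE 0.28, adjusted p 0.364), and DXM overlapped control only in that DXM 2 lay below control 3 (0.63, SE 0.28, adjusted p 0.259). Rhy and model did not separate (-0.10, SE 0.28, adjusted p 1), nor did DXM and model (-0.37, SE 0.28, adjusted p 0.746). Gm671, which overlaps Krt7 on the other strand, had 101 counts in all 12 libraries together.

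Krt20, the type I keratin of surface colonocytes, had 2271, 2687 and 1409 CPM in control and 946, 946 and 1426 CPM in model. Control 3 lay just under model 3, and these were the only libraries whose values crossed. The log2 fold change was -0.94 (SE 0.40, unadjusted p 0.0382, adjusted p 0.506), and -0.84 with model 1 and model 2 summed. With Rhy it had 1507, 1567 and 1436 CPM, all above the model libraries and within the range of control. The difference of Rhy from model was 0.44 on the log2 scale (SE 0.40, adjusted p 1). With DXM it had 1322, 836 and 371 CPM, all below the control libraries. DXM differed from control by -1.33 (SE 0.41, unadjusted p 0.00679, adjusted p 0.142) and from model by -0.39 (SE 0.40, adjusted p 0.815). For DXM against control, the adjusted p of Krt20 in edgeR was 0.215 with model 1 and model 2 summed. It was 0.142 with the replicate number as a block and 0.089 with only the libraries of at least 5 CPM Hoxb13. In DESeq2 fitted to only the groups compared it was 0.08. It was 0.0203 in DESeq2 fitted to all libraries, where 3.53% of all genes with a count passed an adjusted p of 0.05.

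Set against each other, Krt7 counts per 100 Krt20 counts were 2.24, 2.71 and 8.52 in control and 15.5, 14.4 and 14.3 in model. The ratio was 9, 9.46 and 11.9 with Rhy and 9.57, 13.3 and 37.7 with DXM. Every library from DSS groups lay above every control library, and the Rhy libraries lay below the model libraries. This ratio was chosen after its parts had been seen and is given without a test.

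**Figure D2:**
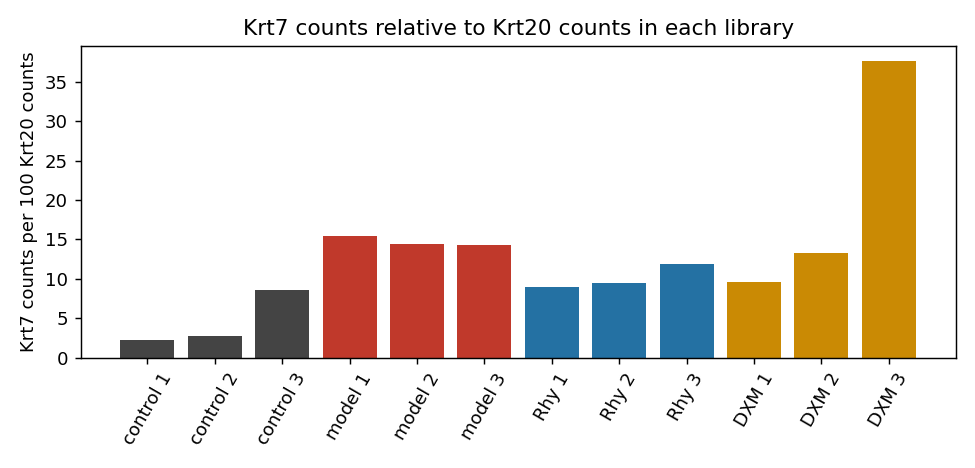
Krt7 counts per 100 Krt20 counts in each of the 12 libraries, as bars from 0 coloured by group. The 3 control bars, up to 8.52, are the shortest, and DXM 3 at 37.7 is the tallest.

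Krt8, the main type II keratin of the colon, had 8311, 7749 and 6434 CPM in control and 5424, 5283 and 6931 CPM in model. Model 3 lay above control 3, and the log2 fold change was -0.35 (SE 0.26, adjusted p 0.696). Krt8 had 6644, 8311 and 9534 CPM with Rhy, of which Rhy 1 was below model 3, and differed from model by 0.47 (SE 0.26, adjusted p 1). It had 6480, 5499 and 5320 CPM with DXM, a difference of -0.03 from model (SE 0.26, adjusted p 0.985). Against control, the differences were 0.12 with Rhy (SE 0.26, adjusted p 0.884) and -0.38 with DXM (SE 0.26, adjusted p 0.451). Gm36026 overlaps Krt8, with 196 counts in all libraries together.

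Krt18, its classic type I partner, had 744, 203 and 313 CPM in control, 354, 332 and 433 CPM in model, 297, 633 and 539 CPM with Rhy and 492, 360 and 361 CPM with DXM. Control 1 and control 2 were the highest and the lowest of all 12 libraries, so the control range enclosed the other groups. The log2 fold changes were -0.17 for model against control (SE 0.42, adjusted p 0.919), 0.39 for Rhy against model (SE 0.42, adjusted p 1) and 0.12 for DXM against model (SE 0.42, adjusted p 0.963). Rhy and DXM differed from control by 0.22 (SE 0.42, adjusted p 0.866) and -0.05 (SE 0.42, adjusted p 0.958). Krt18 counts per 100 Krt8 counts were 8.95 in control 1, 2.62 in control 2 and 4.86 in control 3, and 4.47 to 7.62 in the 9 libraries of the DSS groups.

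Krt19, the smallest type I keratin and the main one here, had 6684, 4143 and 3506 CPM in control, 4652, 4537 and 4733 CPM in model, 4679, 6279 and 6163 CPM with Rhy and 4456, 3869 and 4753 CPM with DXM. The highest and the lowest values were again both from control libraries. The log2 fold changes were -0.04 for model against control (SE 0.28, adjusted p 0.975), 0.30 for Rhy against model (SE 0.28, adjusted p 1) and -0.09 for DXM against model (SE 0.28, adjusted p 0.956). Those against control were 0.26 with Rhy (SE 0.28, adjusted p 0.744) and -0.13 with DXM (SE 0.28, adjusted p 0.835).

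**Figure D3:**
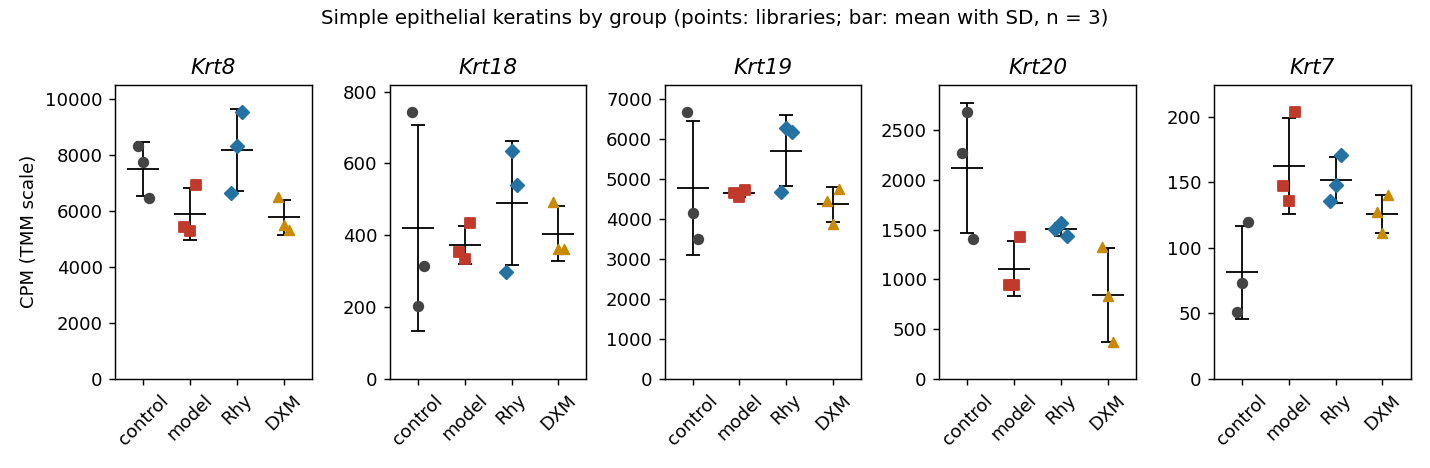
CPM of Krt8, Krt18, Krt19, Krt20 and Krt7 in the 4 groups, each axis from 0, with a point per library and a bar for the mean with its SD (n = 3). Krt7 lies higher in every model and Rhy library than in any control library, Krt20 lies lower in every DXM library than in any control library, and Krt18 is widest in control.

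The simple keratins were also read against Epcam, an adhesion protein of all colon epithelial cells. Krt20 counts per 100 Epcam counts were 108, 122 and 65.5 in control, 60.9, 60.6 and 85.2 in model, 70.8, 86 and 79 with Rhy and 79.1, 65.4 and 32.4 with DXM. Control 1 and control 2 lay above all other libraries, and control 3 lay among them. Krt7 counts per 100 Epcam counts were 2.42, 3.3 and 5.58 in control, 9.46, 8.75 and 12.2 in model, 6.37, 8.14 and 9.38 with Rhy and 7.56, 8.69 and 12.2 with DXM. All 9 DSS libraries lay above the 3 control libraries on this scale. Epcam itself had 2100, 2207 and 2152 CPM in control and 1553, 1560 and 1673 CPM in model (-0.43, SE 0.21, unadjusted p 0.0653). It was lower without overlap, as were 6.61% of all genes, and a lower denominator raises the ratio. Krt8 counts per 100 Epcam counts were 396, 351 and 299 in control, 349, 339 and 414 in model, 312, 456 and 524 with Rhy and 387, 430 and 465 with DXM, with every group overlapping control.

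The other tested keratins were all low, and spread widely between libraries. Krt12, a keratin of the cornea, had 19.2, 5.98 and 1.65 CPM in control, 2.81, 2.97 and 1.61 CPM in model, 1.88, 2.16 and 4.41 CPM with Rhy and 5.01, 1.98 and 1.62 CPM with DXM. Control 1, with 256 counts, was far above every other library. The log2 fold change of model against control was -1.85 (SE 0.75, unadjusted p 0.0303, adjusted p 0.493), -1.97 with model 1 and model 2 summed, and its smallest size was -0.62 with 1 library left out. Rhy and DXM differed from model by 0.20 (SE 0.74) and 0.21 (SE 0.74). Krt12 is the neighbour of Krt20, 6143 bases away on the same strand, and A830036E02Rik, which overlaps it, had 257 counts in all libraries.

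Krt17, a squamous keratin made in injured and hair follicle epithelium, had 26.2, 3.48 and 3.73 CPM in control, 5.02, 5.04 and 3.87 CPM in model, 10.9, 13.5 and 7.7 CPM with Rhy and 12.4, 4.68 and 20.7 CPM with DXM. Control 1 was again the highest, and without it the direction of model against control (-1.26, SE 0.73, adjusted p 0.6) turned to 0.36. All 3 Rhy values exceeded all 3 model values, with a log2 fold change of 1.20 (SE 0.73, adjusted p 1), and DXM against model was 1.44 (SE 0.73, adjusted p 0.662).

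Krt14, the type I keratin of basal squamous cells, had 0.599, 3.55 and 1.1 CPM in control, 7.17, 7.1 and 1.37 CPM in model, 3.17, 6.66 and 14.2 CPM with Rhy and 3.63, 2.6 and 12.5 CPM with DXM. Model 3 lay within the control range and the other 2 model libraries above it, giving 1.58 for model against control (SE 0.86, adjusted p 0.581), and 1.30 with model 1 and model 2 summed. Rhy and DXM differed from model by 0.62 (SE 0.82) and 0.26 (SE 0.81). Its partner Krt5 had 0, 1 and 4 counts in model.

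Krt10, of the upper squamous layers, varied least of the low keratins, from 2.85 to 7.14 CPM. It had 6.66, 3.06 and 4.45 CPM in control, 3.92, 2.85 and 3.99 CPM in model, 4.88, 5.55 and 5.77 CPM with Rhy and 5.21, 5.11 and 7.14 CPM with DXM. All Rhy and all DXM libraries lay above all model libraries, with log2 fold changes of 0.59 (SE 0.32, adjusted p 1) and 0.70 (SE 0.32, unadjusted p 0.0513, adjusted p 0.649). Model against control was -0.39 (SE 0.32). Krt23, a type I keratin, had 12.1, 2.43 and 3.24 CPM in control, 2.98, 3.52 and 3.46 CPM in model, 6.51, 3.4 and 2.26 CPM with Rhy and 1.99, 3.42 and 1.47 CPM with DXM. Control 1 stood highest again, and the log2 fold changes were -0.83 (SE 0.60), 0.28 (SE 0.60) and -0.53 (SE 0.60) for model against control, Rhy against model and DXM against model.

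Krt80, which many epithelia make, had 2.02, 0.974 and 1.98 CPM in control, 1.32, 1.33 and 1.37 CPM in model, 4.54, 2.55 and 0.566 CPM with Rhy and 1.65, 1.45 and 1.77 CPM with DXM. The DXM libraries lay just above the model libraries (0.27, SE 0.59), and Rhy held both the highest and the lowest value (0.91 against model, SE 0.59). Model against control was -0.30 (SE 0.59). Gm35853 and Mir1941, which overlap Krt80, had 61 counts in all libraries together, beside 337 for Krt80. Krt222 had 1.2, 4.24 and 2.2 CPM in control, 1.65, 1.76 and 0.596 CPM in model, 2.48, 0.653 and 0.736 CPM with Rhy and 1.3, 1.11 and 0.253 CPM with DXM. Its log2 fold changes were -0.93 (SE 0.72), -0.08 (SE 0.74) and -0.60 (SE 0.74) in the same order of comparisons as for Krt23. Krt87, a hair keratin 724 bases from the end of Krt7, had 0.374, 1.11 and 2.63 CPM in control, 2.37, 1.76 and 2.38 CPM in model, 1.11, 2.61 and 2.72 CPM with Rhy and 1.78, 2.99 and 3.8 CPM with DXM. Its groups overlapped, with 0.64 (SE 0.60), -0.01 (SE 0.59) and 0.40 (SE 0.58).

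Krt84, a hair keratin also known from the tongue, had 1.35, 8.41 and 30.6 CPM in control, 13.7, 11.9 and 31.4 CPM in model, 25.7, 2.81 and 3.23 CPM with Rhy and 0.891, 4.29 and 3.49 CPM with DXM. All DXM libraries lay below all model libraries, and 1 library in each of the other groups stood at 25.7 CPM or more. DXM against model was -2.70 (SE 1.08, unadjusted p 0.0289, adjusted p 0.637), the only unadjusted call of a keratin in that comparison, and -2.92 with model 1 and model 2 summed. Model against control was 0.49 (SE 1.01) and Rhy against model -0.86 (SE 1.02), the latter between -2.65 and -0.26 with 1 library left out.

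Krt36, a hair keratin whose gene lies 11700 bases from Krt13, had 2.17, 1.46 and 0.22 CPM in control, 3.86, 4.91 and 1.19 CPM in model, 0, 15.7 and 31.8 CPM with Rhy and 1.17, 7.18 and 51 CPM with DXM. The span from 0 to 51 CPM was the widest of the tested hair keratins, and Rhy 1 and DXM 1 lay below all the model libraries. The log2 fold changes were 1.40 (SE 1.5), 2.26 (SE 1.43) and 2.57 (SE 1.44) for model against control, Rhy against model and DXM against model. Against control, Rhy gave 3.66 (SE 1.56, unadjusted p 0.0374, adjusted p 0.405) and DXM 3.97 (SE 1.57, unadjusted p 0.027, adjusted p 0.213).

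Krt13, a type I keratin of moist squamous linings, had 0.899, 0.626 and 0.11 CPM in control, 2.7, 3.4 and 0.0596 CPM in model, 0, 0.784 and 6 CPM with Rhy and 0.411, 0.289 and 5.32 CPM with DXM. Its 1.94 for model against control (SE 1.57, adjusted p 0.723) was the largest positive value among the 19 keratins, with model 3 below all controls, and it was 1.57 with model 1 and model 2 summed. Rhy and DXM differed from model by 0.16 (SE 1.44) and -0.02 (SE 1.44). Krt15, of basal cells, had 3.89, 1.39 and 0.329 CPM in control, 1.38, 1.7 and 0.238 CPM in model, 0.771, 2.35 and 2.26 CPM with Rhy and 3.22, 0.916 and 1.32 CPM with DXM, with log2 fold changes of -0.74 (SE 0.87), 0.71 (SE 0.87) and 0.70 (SE 0.87). Krt16, a squamous keratin of injured skin, had 0.225, 0.834 and 0 CPM in control, 0.276, 0.728 and 0 CPM in model, 0, 1.31 and 0.34 CPM with Rhy and 1.1, 0.241 and 0.405 CPM with DXM, with -0.05 (SE 1.41), 0.74 (SE 1.34) and 0.76 (SE 1.34). Krt27, of the hair root sheath, had 0, 13 and 5 counts in control, 0, 1 and 0 in model, 2, 0 and 31 with Rhy and 23, 0 and 0 with DXM. Against the single count of the model group, its summed count per effective library size was 20.1 times as high in control (95% Clopper-Pearson interval 3.18 to 839, counting error only), 38 times with Rhy (6.36 to 1545) and 21.5 times with DXM (3.48 to 884). Of these counts, 31 of 33 with Rhy and 23 of 23 with DXM came from 1 library. Those intervals leave out the spread between libraries, which edgeR takes in. Its log2 fold change for Krt27 was -3.88 for model against control (SE 2.39, unadjusted p 0.131). It was 4.63 for Rhy against model (SE 2.31, unadjusted p 0.0688) and 4.21 for DXM against model (SE 2.35, unadjusted p 0.0992).

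**Figure D4:**
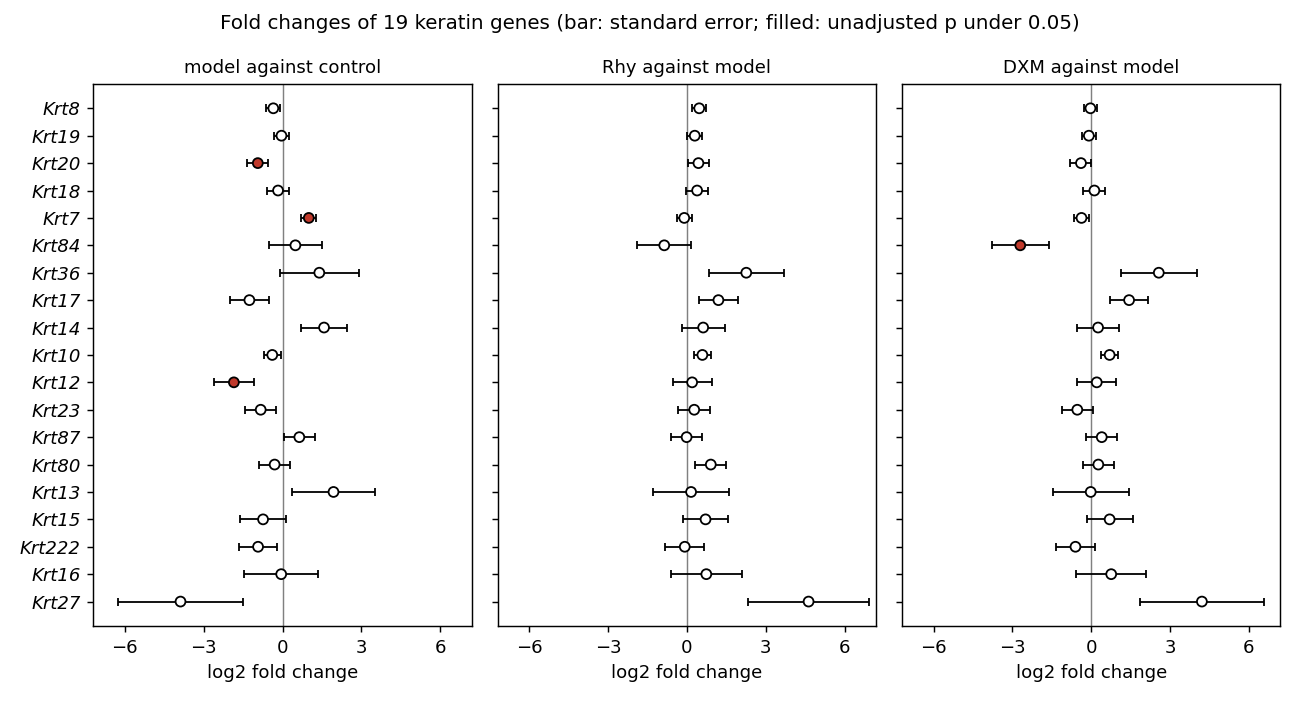
Log2 fold change of each of the 19 tested keratin genes with its standard error in model against control, Rhy against model and DXM against model, filled red where the unadjusted p was under 0.05. The filled points are Krt7, Krt20 and Krt12 in the first comparison and Krt84 in the third, none passed an adjusted p of 0.05, and the Krt27 points rest on 1 count in the model group.

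Rhy against model addresses the effect of the alkaloid in colitis. No keratin passed an adjusted p of 0.05 (0% of all genes did), and 0 of 19 had an unadjusted p under 0.05 in edgeR, against 3.72% of all genes. At an unadjusted p under 0.05, DESeq2 fitted to all libraries gave 1 of 41 keratins, against 3.05% of all genes, and fitted to the groups compared 4 of 37, against 3.74%. Of the 19, 15 were higher and 4 lower with Rhy, with a median of 0.44 on the log2 scale beside -0.01 for all genes. Krt20, Krt17 and Krt10 were higher in Rhy without overlap, where 5.51% of all genes were, and 0 keratins were lower without overlap, where 6.02% of all genes were. The summed simple keratins had 12161 ± 1364 CPM (SD, n = 3) in model and 16015 ± 2425 CPM with Rhy. Rhy 1, at 13263 CPM, lay below model 3, at 13726 CPM, so these sums overlapped.

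For DXM against model, which sets the steroid beside the untreated colitis, no keratin passed an adjusted p of 0.05, nor did any other gene (0%), and 1 of 19 (Krt84) had an unadjusted p under 0.05, against 7.69% of all genes. Krt84 was lower, as were 2.8% of all genes at that threshold, while 4.89% were higher. Without model 3, or without DXM 3, that count was 0, and with the replicate number as a block the 1 keratin was Krt10. Here 11 were higher and 8 lower, with a median of 0.21 beside -0.01 for all genes. Krt10 and Krt80 were higher without overlap, as were 10.4% of all genes, and Krt84 was lower without overlap, as were 12.2%. The summed simple keratins had 11499 ± 1201 CPM (SD, n = 3) with DXM, overlapping model, and 14900 ± 3139 CPM in control.

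The comparisons of the treated colitis groups with control share their control libraries with the first comparison. At an unadjusted p under 0.05, Rhy against control gave 4 of 19 keratins (Krt7, Krt14 and Krt36 higher, Krt12 lower), against 11.6% of all genes, 6.46% higher and 5.09% lower. Only Krt7 was higher without overlap, as were 7.5% of all genes, and 0 keratins were lower, where 4.79% of all genes were. DXM against control gave 5 of 19 (Krt7 and Krt36 higher, Krt20, Krt12 and Krt23 lower), against 18.9% of all genes, 8.68% higher and 10.2% lower. Only Krt20 was lower without overlap, as were 8.89% of all genes, and 0 keratins were higher, where 9.77% of all genes were. None passed an adjusted p of 0.05 in either, as no gene did (0%), and the smallest adjusted p of a keratin was 0.364 and 0.142. With model 1 and model 2 summed the DXM count was 2 (Krt20 and Krt36), and without DXM 3 it was 1.

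Several low keratins differed between libraries with high and with low counts of Hoxb13, a homeobox gene of the hindmost gut. Control 3, model 3 and Rhy 1 had 0 to 1.49 CPM of Hoxb13, and the other 9 libraries had 72 to 316 CPM. In those 3 libraries Krt84 was 25.7 to 31.4 CPM against 0.891 to 13.7 CPM in the others. Krt13 was 0 to 0.11 against 0.289 to 6 CPM, Krt15 was 0.238 to 0.771 against 0.916 to 3.89 CPM and Krt16 was 0 against 0.225 to 1.31 CPM. These 4 keratins did not overlap between the 2 sets of libraries (1 of 19 higher, where 3.28% of all genes were, and 3 of 19 lower, where 4.92% were), while Krt36, at 0 to 1.19 against 1.17 to 51 CPM, overlapped at its edge. The 5 simple keratins all overlapped. No DXM library was among the 3. With only the libraries of at least 5 CPM Hoxb13, the log2 fold change of Krt84 in DXM against model was -2.11 (adjusted p 0.493). Those libraries had 1.35 and 8.41 CPM of Krt84 in control, 13.7 and 11.9 in model, 2.81 and 3.23 with Rhy and 0.891 to 4.29 with DXM. In Rhy against model, Krt84 had an unadjusted p under 0.05 in edgeR with that restriction, with Hoxb13 as a covariate and without Rhy 1. In model against control it did so only with the covariate.

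In a fit of group means with a slope on log2 Hoxb13, 7 of the 19 keratins had an unadjusted p under 0.05 for the slope, against 19.7% of all genes. The slope was positive for Krt36, Krt14, Krt12, Krt13, Krt15 and Krt16 and negative for Krt84. Krt84 was the only keratin with an adjusted p under 0.05, against 2.41% of all genes, with a log2 change of -0.28 per doubling of Hoxb13 (SE 0.05, adjusted p 0.0262). That call was lost with model 1 and model 2 summed and when any of control 3, model 1, model 2, Rhy 1, Rhy 2 or Rhy 3 was left out. This slope was fitted after the low Hoxb13 libraries had been seen.

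**Figure D5:**
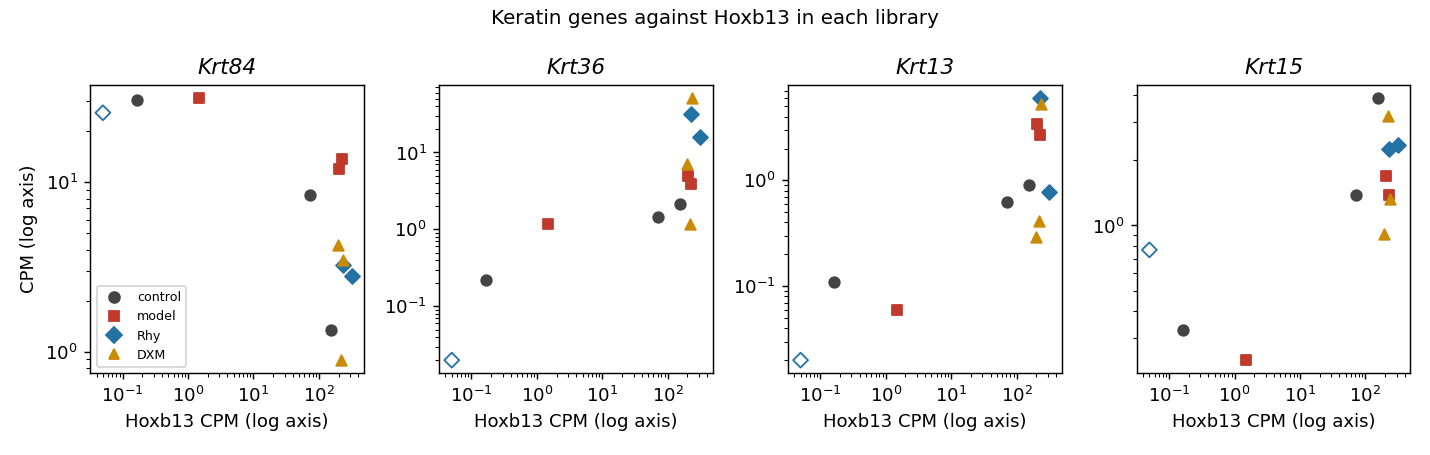
CPM of Krt84, Krt36, Krt13 and Krt15 against CPM of Hoxb13 in each of the 12 libraries (both axes log), coloured by group, with open symbols where either value was 0 and is drawn at the axis floor. The 3 libraries at the left, with 0 to 1.49 CPM of Hoxb13, have the highest Krt84 and the lowest Krt13 and Krt15.

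Genes that work with keratin filaments were read alongside. Of 30 genes for keratin partners and regulators, 29 were tested, all but Trp63. In model against control 3 of the 29 had an unadjusted p under 0.05, all lower, against 9.62% of all genes (4.51% lower). Plec encodes plectin, which links keratin filaments to other cell structures, and had 887, 1017 and 701 CPM in control and 534, 522 and 421 CPM in model, without overlap (log2 fold change -0.82, SE 0.24, unadjusted p 0.00577). Hnf4a, a transcription factor of gut epithelium, had 1006, 917 and 823 CPM in control and 593, 580 and 704 CPM in model, also without overlap (-0.55, SE 0.21, unadjusted p 0.023). The third was Bcas3, at 14.5 to 27.3 CPM in control and 11 to 13.5 CPM in model (-0.66, SE 0.28, unadjusted p 0.0345). Of all genes, 6.61% were lower without overlap in this comparison. Elf3, an epithelial transcription factor, and Hspa8, a chaperone, differed by -0.10 (SE 0.22) and 0.28 (SE 0.40). In Rhy against model 0 of the 29 had an unadjusted p under 0.05, against 3.72% of all genes. In DXM against model 1 did, Cdx2 (-1.26, SE 0.58, unadjusted p 0.0489), where 2.8% of all genes were lower at that threshold. Cdx2 had 233, 224 and 391 CPM in model and 158, 139 and 56.5 CPM with DXM. It was at 433, 391 and 535 CPM in control 3, model 3 and Rhy 1, which were low in Hoxb13. The other libraries, all DXM libraries among them, had 56.5 to 271 CPM. The part of this in the Cdx2 difference was not tested.

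Desmosomes anchor keratin filaments at cell borders. Of 16 desmosome genes 10 were tested, 3 higher and 7 lower in model against control, and only Dsc3 had an unadjusted p under 0.05 (1.47, SE 0.51, unadjusted p 0.0137), where 5.11% of all genes were higher at that threshold. Dsc3 was near the floor, at 0.274 to 0.374 CPM in control and 0.607 to 1.09 CPM in model. Dsp, Perp, Jup and Dsg2, the most abundant by CPM, differed by -0.64 (SE 0.34), -0.41 (SE 0.24), -0.51 (SE 0.24) and -0.55 (SE 0.28). With Rhy against model the same 4 differed by -0.01 (SE 0.34), 0.30 (SE 0.24), 0.19 (SE 0.24) and 0.32 (SE 0.28). In that comparison 0 of the 10 had an unadjusted p under 0.05, against 3.72% of all genes. In DXM against model 0 of the 10 did, against 7.69% of all genes. With 10 genes, such shares leave little room for a call.

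The other intermediate filament genes, all 16 tested, belong mostly to muscle, connective tissue, nerve and the nuclear lamina. In model against control 2 of them, Gfap (1.31, SE 0.51) and Nefm (1.22, SE 0.41), had an unadjusted p under 0.05, both higher, where 5.11% of all genes were. Gfap had 3.52, 7.16 and 3.13 CPM in control and 14.5, 14 and 5.72 CPM in model. Its model 3 value lay within the control range, so the difference rests on model 1 and model 2, the closely alike pair. Des, the muscle filament, had 616 to 1659 CPM in control and 652 to 923 CPM in model (-0.26, SE 0.37), and Vim, of connective tissue, had 127 to 185 CPM and 128 to 143 CPM (-0.18, SE 0.47). Synm, a muscle filament protein, differed by 0.29 (SE 0.42) and Lmna, of the nuclear lamina, by 0.18 (SE 0.47). In Rhy against model 2 of the 16 had an unadjusted p under 0.05, against 3.72% of all genes. Lmna had 442, 1156 and 1509 CPM with Rhy and 560, 543 and 401 CPM in model (1.05, SE 0.47, unadjusted p 0.0464). Rhy 1, low in Hoxb13, lay within the model range, so the difference rests on Rhy 2 and Rhy 3. Gfap, of glia, was at 1.98 to 2.68 CPM with Rhy and 5.72 to 14.5 CPM in model (-2.29, SE 0.53, unadjusted p 0.000997). It was lower without overlap, as were 6.02% of all genes. In DXM against model 2 of the 16 did, against 7.69% of all genes. Vim was at 156 to 541 CPM with DXM (1.24, SE 0.48, unadjusted p 0.0239). Lmnb2, also of the lamina, was at 43.1 to 49.6 CPM with DXM and 60.5 to 68.2 CPM in model (-0.47, SE 0.16, unadjusted p 0.0127). It was lower without overlap, as were 12.2% of all genes. None of the partner, desmosome and other filament genes passed an adjusted p of 0.05 in these 3 comparisons. Summed smooth muscle genes were 3253 to 6252 CPM in control, 3636 to 4725 in model, 5609 to 6474 with Rhy and 5053 to 9135 with DXM, and their part in the keratin values was not tested.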

How the data were processed

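RNA-Seq gave 12 libraries of mouse colon. The deposited counts are whole reads per gene, which the authors did not normalise. The authors also deposited FPKM, which equal the counts over gene length and a library factor (100% of 262985 values recovered within 0.1%). The submitters' processing notes name HISAT2 2.0.5, featureCounts 1.5.0-p3, DESeq2 1.16.1 and mm10. Strand use in counting is not given in the sources used here, so overlapping and antisense genes are uncertain. All 53 keratin coordinates match GENCODE M21, as do 98.3% of 54409 genes.

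Counts were tested with edgeR 4.0.16 (R 4.3.3; TMM, filterByExpr with a minimum count of 10, quasi-likelihood, group means over all 12 libraries, Benjamini-Hochberg adjustment over 16904 genes). DESeq2 1.42.0 and limma 3.58.1 (log2 of FPKM plus 1 or 0.1) were alternatives. In simulated data for model against control, 200 of 16904 genes were changed 4-fold. Of these 200, edgeR, which tested 16587 of the 16904 genes, recovered 110 with 5 false calls. DESeq2, which tested all 16904, recovered 147 with 41 on all libraries and 148 with 61 on the groups compared. These counts hold for the simulated libraries, which may lack features of the real ones, such as the closely alike model pair. The false-call rate among the keratin calls was not tested. Fold changes at CPM under about 1 rest on few counts, and precision follows the totals of 14346478 to 17749716 counts.

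Libraries were grouped by their labels, and 0 columns of sample values were left unassigned. Deviations from the group means of same-numbered model and control libraries had r of 0.21, 0.104 and 0.363, though the labels name no shared litter or day. The r of 0.363 was that of control 3 and model 3, which were both low in Hoxb13. In the other comparisons r ran from -0.31 (Rhy 1 and control 1) to 0.142 (Rhy 2 and model 2). The labels do not state that the libraries of a group came from separate mice, so p-values measure the spread between libraries, which may be technical. Every keratin was accounted for: tested ones by value in every library, with fold changes, and the rest by their counts or range. Partner genes named are the 4 highest by CPM of each list and those with an unadjusted p under 0.05, the latter chosen after their values were seen, as were the Krt7, Krt20, Krt36 and Krt84 promoters, the count ratios, the Krt78 counts, the squamous and cornified marker genes named and the Hoxb13 slope. The members and lists were chosen with earlier results of these data known.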

Additional observations from a re-analysis of the deposited data

How the results depend on the processing

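No keratin had an adjusted p under 0.05 between groups with edgeR or limma under any scaling, filter or sample choice tried, whether 1 library was left out or model 1 and model 2 were summed. DESeq2 on only the groups compared called 2 of the 35 keratins with a count in DXM against model, among 590 of all genes (2.08%). These were Krt84 (adjusted p 0.000109) and Krt17 (adjusted p 0.0481). On all libraries it called 1 of 41 in DXM against control (Krt20), among 1059 (3.53%). These shares are of all genes with a count, including any to which DESeq2 gave no adjusted p. The replicate block called 0 in every comparison. The slope on Hoxb13 called 1 keratin of 19 among 407 of all genes, against 5 of 41 among 894 with genes of any count, 2 of 19 among 486 with upper-quartile scaling, 0 of 19 among 98 with model 1 and model 2 summed and 0 to 1 with 1 library left out; the cause was not tested. The restriction to Hoxb13 of at least 5 CPM, the block on only the groups compared and the slope were added after seeing the data.

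Of 67 log2 fold changes, 41 kept their sign throughout. In Rhy against model, Krt87 turned to 0.02 (RLE scaling, DESeq2 in both forms, Hoxb13 covariate), 0.01 (upper-quartile) and 0.39 (Hoxb13 of at least 5 CPM). Krt13 turned to -0.38 and -0.07 (limma) and -1.09 (block), Krt222 to 0.12 (models summed), and Krt7 and Krt23 to 0.20 and -0.17 (Hoxb13 of at least 5 CPM). In DXM against model, Krt13 turned to 0.05 (upper-quartile), 0.00 (DESeq2, groups compared) and 0.34 (models summed), Krt8 to 0.05 (upper-quartile) and 0.12 (Hoxb13 of at least 5 CPM), Krt12 to -0.12 and Krt18 to -0.06 (covariate), Krt12 to -0.01 and Krt14 to -0.18 (Hoxb13 of at least 5 CPM) and Krt14 to -0.01 (block). In DXM against control Krt18 turned to 0.01 (upper-quartile, block) and 0.10 (limma). In model against control Krt16 turned to 0.01 (block), and Krt19 and Krt18 to 0.01 and 0.04 (block, groups compared).

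With 1 library left out, the ranges that crossed 0 were, for model against control, -0.25 to 0.28 for Krt19, -0.50 to 0.53 for Krt18, -0.14 to 1.93 for Krt84, -1.70 to 0.36 for Krt17, -1.19 to 0.22 for Krt23, -1.28 to 0.38 for Krt15 and -1.25 to 1.65 for Krt16. All of these except Krt16 crossed without control 1, and Krt84 also without model 3. For Rhy against model they were -0.21 to 0.13 for Krt7, -0.08 to 1.00 for Krt14, -0.28 to 0.42 for Krt12, -0.23 to 0.57 for Krt23, -0.21 to 0.29 for Krt87, -2.29 to 0.73 for Krt13, -0.94 to 0.24 for Krt222 and -0.81 to 1.93 for Krt16. For DXM against model they were -0.12 to 0.12 for Krt8, -0.05 to 0.25 for Krt18, -0.74 to 0.63 for Krt14, -0.45 to 0.49 for Krt12, -2.54 to 0.54 for Krt13, -0.05 to 1.96 for Krt16 and -1.85 to 6.06 for Krt27. Against control they were -0.00 to 0.25 for Krt8 and -0.11 to 0.92 for Krt18 with Rhy, and -0.33 to 0.19 for Krt19 and -0.38 to 0.65 for Krt18 with DXM.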
